A study of Mus musculus with 2343 samples.

Results

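Medullary thymic epithelial cells (mTECs) present self-antigens to maturing T cells, and they do so together with costimulatory molecules. The 8 genes described here are Cd80, Cd86, Cd40, Cd274, Tnfrsf11a, Relb, Nfkb2 and Traf6. They were chosen by name, with earlier results of these data known, and are 8 of the 45317 gene rows of a deposited table of read counts. All 8 passed the filter on low counts in the bulk libraries, among 18931 genes tested.

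Cd80 and Cd86 are the ligands of CD28 and CTLA-4 on T cells, and Cd274 encodes PD-L1, the ligand of the inhibitory receptor PD-1. CD40 and RANK, the product of Tnfrsf11a, are receptors of the TNF receptor family that thymocytes and other lymphoid cells engage through CD40 ligand and RANK ligand. TRAF6 is an adaptor that carries their signal to the IkB kinases, which release NF-kB dimers into the nucleus. Nfkb2 encodes p100, which is processed to p52 in the non-canonical branch of the pathway, and RelB is the main partner of p52. Mature Aire-expressing mTECs depend on this receptor pathway and are known for high surface CD80 and MHC class II.

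The study measured RNA in sorted thymic epithelial cells of mice in which Eed, a subunit of the Polycomb repressive complex PRC2, was floxed. All groups used here carry the floxed allele. Cortical cells (cTECs) came from the strain Eedflfl, called WT, or from Eedflfl::beta5tCre, called Eed. MHC class II high medullary cells (mTEChi) came from Eedflfl::ZsGreen, called WT and labelled as ZsGreen negative, or from Eedflfl::ZsGreen::beta5tCre. The latter were sorted by ZsGreen fluorescence into a negative fraction, ZsGneg, and a positive one, ZsGpos. The beta5t promoter is active in cTECs and in early epithelial progenitors, so the Cre is not restricted to the medulla. The labels give no age and name no animals. The p-values below therefore cover the variation among these libraries, which may be technical.

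Bulk mTEChi RNA came from about 1000 cells a library, in 4 ZsGpos, 4 ZsGneg and 9 WT libraries, the WT ones summed into 3 units by their label number. The ZsGpos and ZsGneg units held 10519116 to 14886657 gene counts and the WT units 35197445 to 43344149. Single cells formed 5 groups, cTEC WT, cTEC Eed and the 3 mTEChi groups, with 330 cells in the largest mTEChi group, ZsGneg, after filtering. Eed, the targeted gene, was at 30.2 to 52.1 CPM (counts scaled to library size) in bulk WT units. It was at 49.02 to 101.1 CPM in ZsGneg and at 16.7 to 90.1 CPM in ZsGpos units. A count per gene does not separate floxed from remaining exons, so Eed does not check the labels. The 10 medullary markers examined were all detected in each bulk group. Of 14 wells without template, 3 wells, all on plate SCGC1380, also passed the cell filter and held 11, 17 and 4 reads on the 8 genes, while the other wells held none.

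The 8 genes lie on 5 chromosomes of GRCm38.p6, all as protein-coding genes of the RefSeq annotation. Tnfrsf11a lies on chromosome 1 at 105780673 to 105849444. Traf6 and Cd40 lie on chromosome 2, at 101678420 to 101701668 and 165055614 to 165071654, and Relb on chromosome 7 at 19606217 to 19629438. Cd86 (36568956 to 36666158) and Cd80 (38457430 to 38495958) lie on chromosome 16. Cd274 (29362107 to 29388095) and Nfkb2 (46300994 to 46312400) lie on chromosome 19. Other annotated genes overlap the spans of Cd80, Cd274 and Nfkb2. Without the strand setting of the counting, it is not known whether reads in shared stretches were assigned to either gene or set aside.

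RefSeq promoter windows, 250 bases before to 50 after a start, were at hand for 5 of the 8 genes with 7 starts in all. A search for the NF-kB consensus site, a motif of 10 letters, on both strands found a match in 1 of these genes, Nfkb2, at each of its 3 starts. Its windows at 46305445 to 46305744 and 46305680 to 46305979 overlap, and the only match of the latter is also a match of the former. Of all 32851 promoter windows of this length, 4.51% held a match. The first Nfkb2 window (chr19:46304487-46304786, plus strand) and the Cd80 window (chr16:38458683-38458982, plus strand) are shown because Nfkb2 is both a member of the pathway and the gene with matches, and Cd80 had the largest bulk fold difference below. Capitals mark the matches, 2 of which overlap at -39 to -30 and -38 to -29 from the start and 1 of which lies at -11 to -2. The Cd80 window held no match to these letters.
Nfkb2: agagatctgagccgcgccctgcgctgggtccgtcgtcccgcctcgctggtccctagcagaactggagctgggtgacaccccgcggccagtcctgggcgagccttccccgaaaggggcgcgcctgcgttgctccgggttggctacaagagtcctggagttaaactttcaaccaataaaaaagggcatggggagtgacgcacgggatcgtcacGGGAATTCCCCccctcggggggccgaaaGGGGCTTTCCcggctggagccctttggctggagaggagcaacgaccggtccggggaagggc
Cd80: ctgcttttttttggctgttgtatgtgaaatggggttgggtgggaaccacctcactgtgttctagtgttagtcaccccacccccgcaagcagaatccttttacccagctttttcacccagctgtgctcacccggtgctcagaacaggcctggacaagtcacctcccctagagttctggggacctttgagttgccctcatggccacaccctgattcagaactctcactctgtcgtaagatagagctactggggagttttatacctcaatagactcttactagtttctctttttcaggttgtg

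In bulk mTEChi, Cd40 was lower in ZsGpos than in ZsGneg cells, at 148.1 ± 23.2 against 279.3 ± 67.1 CPM (SD, n = 4 units each), and was the only one of the 8 genes that passed the test (edgeR quasi-likelihood test, log2 fold change -0.92, SE 0.22, adjusted p = 0.0421). Its level in WT cells was 224.8 ± 30.6 CPM (SD, n = 3 units). The levels were lower in ZsGpos units than in any unit of both other groups. In this comparison 2.66% of the 18931 genes tested passed, 2.04% lower in ZsGpos and 0.623% higher. Bulk levels cannot tell fewer cells that express a gene from less RNA per cell.

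Cd40, the receptor for CD40 ligand, had 120.6, 175.8, 141.2 and 154.7 CPM in the ZsGpos units, as CPM with TMM scaling. The receptor had 207.6, 240.9, 314.2 and 354.7 CPM in the ZsGneg units and 194.4, 255.6 and 224.4 CPM in the WT units. ZsGpos and WT units also did not overlap, but this difference did not pass (log2 -0.60, SE 0.24, adjusted p = 0.423). Cd80 had 23.9, 22.8, 5.78 and 52.5 CPM in ZsGpos. The ZsGneg units had 79.9, 85.4, 86.3 and 157.1 CPM and the WT units 50.03, 45.96 and 36.7 CPM. The 4 ZsGneg units thus all lay above all 7 others, and 3 of the 4 ZsGpos units below WT. The log2 fold change of Cd80 was -1.96 for ZsGpos against ZsGneg (SE 0.53, adjusted p = 0.0709) and 1.21 for ZsGneg against WT (SE 0.57, adjusted p = 0.502), so neither passed in edgeR.

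Cd86, the partner ligand of Cd80, had 22.3, 16.9, 13.8 and 9.86 CPM in ZsGpos, 64.8, 52.7 and 28.7 CPM in WT, and 3.82, 42.6, 59.3 and 97.9 CPM in ZsGneg. All ZsGpos units lay below all WT units, and the ZsGneg units ran from the lowest value of the 11 to the highest. Its log2 fold changes did not pass either, at -1.63 against WT (SE 0.75, adjusted p = 0.548) and -1.69 against ZsGneg (SE 0.71, adjusted p = 0.221).

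**Figure D1:**
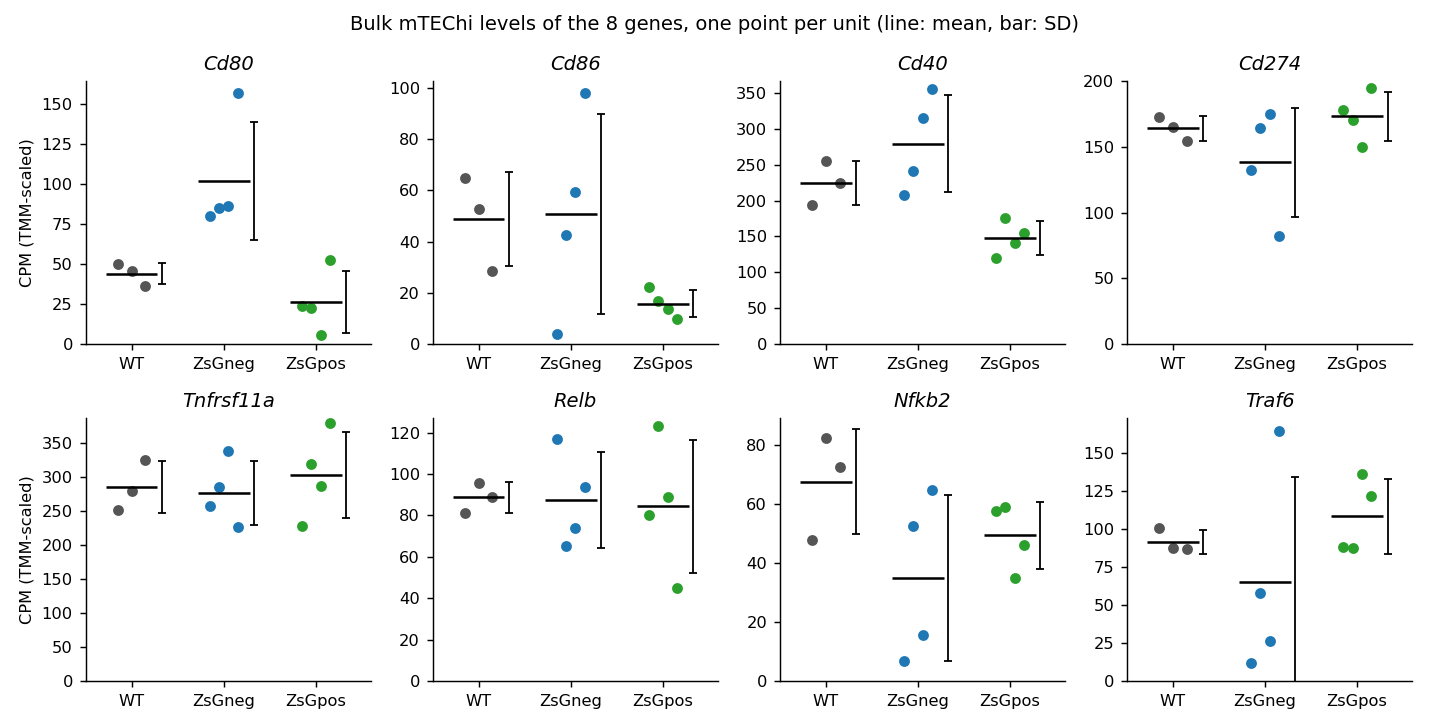
Level of each gene in bulk mTEChi units, in CPM with TMM scaling, one point per unit (3 WT, 4 ZsGneg, 4 ZsGpos), with the mean as a line and the SD as a bar to its right. The ZsGpos points of Cd40 lie below all others, from 120.6 to 175.8 CPM.

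The call of Cd40 against ZsGneg was close to the threshold. It held without ZsGneg 01 (adjusted p = 0.0262) and without ZsGneg 02 (0.0477). It was lost, with log2 fold changes of -0.78 to -1.01 and adjusted p-values of 0.05918 to 0.0990 in edgeR, without WT 01, WT 02 or WT 03, without ZsGneg 03 or ZsGneg 04, and without ZsGpos 01, ZsGpos 02, ZsGpos 03 or ZsGpos 04. Cd80 passed in the same comparison without ZsGpos 04, its highest ZsGpos unit (log2 -2.55, adjusted p = 0.0327), and Cd86 without ZsGneg 01, its lowest unit (log2 -2.08, adjusted p = 0.0431). With DESeq2 both Cd40 (log2 -0.89, adjusted p = 0.00723) and Cd80 (log2 -1.92, adjusted p = 0.0206) passed. 

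Other values moved with these groups. Reads placed outside genes made up 31.2% to 35.9% of ZsGpos units, 18.9% to 24.04% of ZsGneg units and 25.9% to 32.3% of WT units. The mitochondrial share of gene counts was 9.15% to 14.9% in ZsGpos, against 5.54% to 7.83% in ZsGneg and 7.23% to 7.74% in WT, so ZsGpos units lay above all others.

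The 10 medullary markers summed to 17370 to 20986 CPM in ZsGpos, 32146 to 47611 CPM in ZsGneg and 25027 to 32160 CPM in WT. These sums were mostly Cd74 and H2-Aa, genes of MHC class II presentation, and single markers differed. Cd74 had 9762 to 11195 CPM in ZsGpos and 20390 to 36831 CPM in ZsGneg. Krt5, a keratin of medullary epithelium, went the other way with 663.02 to 897.97 CPM in ZsGpos, 188.1 to 396.8 CPM in ZsGneg and 106.9 to 134.7 CPM in WT. Aire had 211.5 to 283.9 CPM in ZsGpos, 100.9 to 171.2 CPM in ZsGneg and 178.3 to 245.1 CPM in WT. With the share outside genes as a covariate none of the 18931 genes passed for ZsGpos against ZsGneg (825 had an unadjusted p under 0.05), and the log2 fold change of Cd40 was -1.65 (adjusted p = 1). The share outside genes did not overlap between ZsGpos and ZsGneg units, so this fit cannot tell the share apart from the group. Dendritic cells also make Cd80, Cd86 and Cd40. The 10 dendritic and myeloid markers summed to 308.1 to 614.4 CPM in ZsGpos, 347.4 to 1225 in ZsGneg and 375.1 to 528.3 in WT. No dendritic marker was at 0 in any of the 3 groups. The 8 thymocyte markers summed to 59.96 to 234.8 CPM in ZsGpos, 66.1 to 125.01 in ZsGneg and 48.95 to 52.4 in WT, and the 3 endothelial markers to at most 32.2 CPM in any unit. The part of these values in the differences was not tested.

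Against WT, no member passed in either fraction of the beta5tCre strain. This held for ZsGpos, where 72 of 18931 genes passed (0.38%; 0.254% lower and 0.127% higher), and for ZsGneg, where 8 passed (0.0423%; 0.00528% lower and 0.037% higher). At an unadjusted p under 0.05 there were 1692 and 1912 genes, and among the members Cd40 (p = 0.0228) and Cd86 (p = 0.0471) in ZsGpos against WT. With DESeq2, which called 674 and 897 genes in these comparisons, no member passed. Groups did not overlap for Cd86 and Cd40 in ZsGpos against WT, both lower, where 11.1% of all tested genes were lower and 4.78% higher without overlap. Cd80 was higher without overlap in ZsGneg against WT, as were 3.92% of genes, with 9.91% lower. Cd80 and Cd40 were lower without overlap in ZsGpos against ZsGneg, as were 5.22% of genes, with 5.44% higher.

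Cd274, the PD-L1 gene, had 178.4, 170.4, 149.7 and 194.5 CPM in ZsGpos, 132.2, 164.2, 174.9 and 82.5 CPM in ZsGneg and 173.2, 165.4 and 154.4 CPM in WT. The 3 groups overlapped, and the log2 fold change between ZsGpos and ZsGneg was 0.32 (SE 0.24, adjusted p = 0.569).

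The receptor gene Tnfrsf11a had 227.4, 318.8, 286.9 and 379.6 CPM in ZsGpos units, 257.5, 285.7, 337.7 and 226.1 CPM in ZsGneg and 250.95, 278.9 and 325.7 CPM in WT. Its 3 log2 fold changes lay between -0.04 and 0.13, each with an SE of 0.21 or 0.22. Relb had 80.3, 123.4, 88.97 and 45.1 CPM in ZsGpos, 117.2, 65.2, 73.98 and 93.6 CPM in ZsGneg and 81.2, 95.9 and 89.2 CPM in WT, with log2 fold changes of -0.07 to -0.02 and SEs of 0.32 to 0.35. RANK and RelB transcripts therefore overlapped across all groups, and their fold changes were smaller than their standard errors.

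Nfkb2 and Traf6 varied most in ZsGneg. Nfkb2 had 6.61, 52.7, 15.5 and 64.9 CPM there, against 57.8, 59.2, 34.8 and 46.3 CPM in ZsGpos and 47.8, 82.4 and 72.6 CPM in WT. Traf6, the adaptor, had 11.6, 57.99, 26.3 and 165.1 CPM in ZsGneg, 88.2, 87.8, 136.5 and 121.7 CPM in ZsGpos and 100.9, 87.8 and 86.7 CPM in WT. ZsGneg 01 was the lowest of all 11 units for Cd86, Nfkb2 and Traf6 alike. The log2 fold changes between ZsGpos and ZsGneg were 0.50 for Nfkb2 (SE 0.58, adjusted p = 0.768) and 0.73 for Traf6 (SE 0.58, adjusted p = 0.601).

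**Figure D2:**
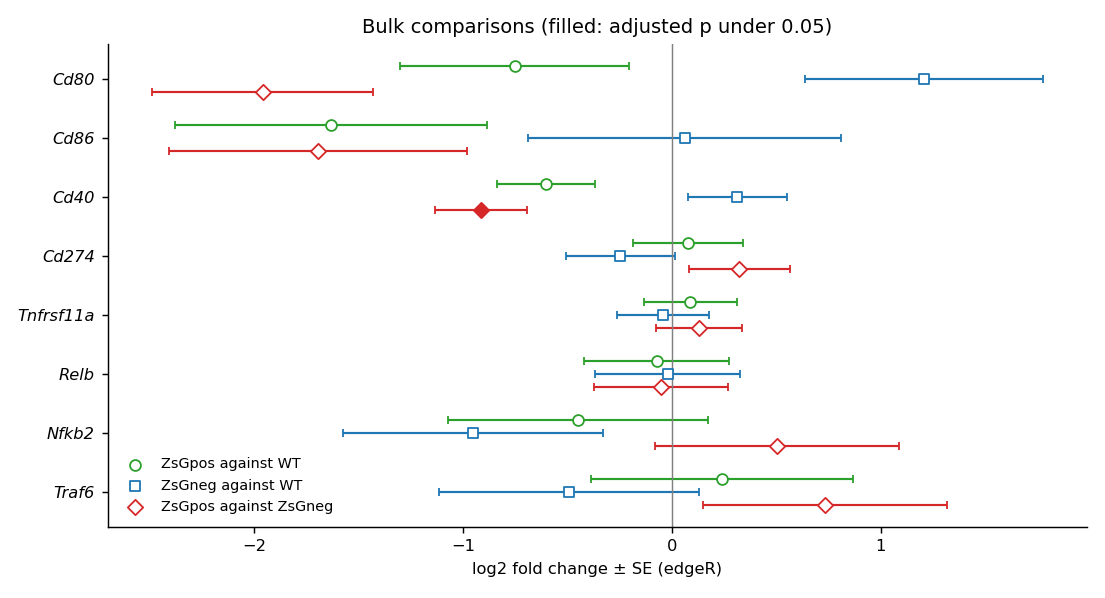
Log2 fold change of each gene with its SE in the 3 bulk comparisons, from the edgeR fit over 11 units. A filled marker shows an adjusted p under 0.05, which Cd40 alone has, at -0.92 for ZsGpos against ZsGneg.

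Single WT libraries of about 1000 cells showed how far these genes vary within a group. Over the 9 WT libraries Cd80 ran from 8.87 to 99.9 CPM with a median of 33.6, and Cd86 from 7.67 to 100.4 with a median of 42.7. Cd40 ran from 149.9 to 295.3 CPM with a median of 202.3, and Relb from 52.3 to 153.5 with a median of 88.7. These values are without TMM scaling. Each WT unit above is the sum of 3 such libraries while each ZsGpos or ZsGneg unit is 1 library, and the lowest single WT libraries fell within or below the ZsGpos range for Cd40, Cd86 and Cd80.

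The wider pathway was described through 4 lists. In bulk ZsGpos against ZsGneg, 1 of 15 tested kinases and adaptors rose, none of the 13 subunits, inhibitors and feedback targets passed, none of 9 tested TNF family ligands and receptors (of 11) passed, and 1 of 13 tested other costimulatory or inhibitory ligands (of 14) fell. The median log2 fold changes of these lists were 0.39, 0.52, 1.10 and 0.11, beside 0.14 over all genes tested. The 1.10 of the TNF family list was the value of Ltbr (SE 1.63), which had 0 to 23.4 CPM over the units. In that list Tnfrsf11b, Tnf and Lta had -0.45, -1.18 and -1.49, and the other tested genes had positive values. The gene that rose was Map3k7, which encodes TAK1, the kinase between TRAF6 and the IkB kinases (70.9, 47.6, 82.8 and 89.6 CPM in ZsGpos against 25.02, 24.9, 17.4 and 15.6 CPM in ZsGneg, log2 1.81, SE 0.35, adjusted p = 0.0140). WT units had 70.8, 78.1 and 63.99 CPM, and ZsGneg against WT did not pass (log2 -1.78, adjusted p = 0.112). The gene that fell was Tnfsf9, the 4-1BB ligand (36.6, 7.43, 20.6 and 17.7 CPM in ZsGpos against 58.3, 50.5, 108.1 and 176.8 CPM in ZsGneg, log2 -2.26, SE 0.53, adjusted p = 0.0366). In single cells Map3k7 had 24.4 CPM in ZsGpos and 32.8 in ZsGneg, the opposite order, and Tnfsf9 had 42.2 and 47.2. The call of Tnfsf9 was lost in 12 of 18 alternatives. It was lost (adjusted p = 0.05956 to 0.1099) without WT 01, WT 02, WT 03, ZsGneg 03, ZsGneg 04, ZsGpos 02, ZsGpos 03 or ZsGpos 04, and also with the 9 WT libraries separate (0.1128), without WT in the model (0.07038), with the replicate number as a block (0.05797) and with the covariate (1). Map3k7 passed with any 1 unit left out. It lost its call without WT in the model (adjusted p = 0.05696), with the block (0.05909) and with the covariate (1). No gene of the 4 lists passed in ZsGpos or ZsGneg against WT.

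Among pathway genes named whatever their change, none passed in ZsGpos against ZsGneg. Map3k14, the kinase NIK that starts p100 processing, had a log2 fold change of 1.09 (SE 0.72, adjusted p = 0.494), and Ltbr, the lymphotoxin beta receptor, 1.10 (SE 1.63, adjusted p = 0.834). Traf3, which holds NIK low, had 1.18 (SE 0.38, adjusted p = 0.130) and Nfkbia, the inhibitor IkB alpha and itself an NF-kB target, 0.52 (SE 0.15, adjusted p = 0.101). For the subunits the log2 fold changes were 0.80 for Rela, -0.73 for Rel and 0.14 for Nfkb1, with adjusted p-values of 0.796, 0.474 and 0.896. Tnfaip3, the feedback inhibitor A20, had 0.54 (adjusted p = 0.602). The ligands Pdcd1lg2 (PD-L2) and Icosl had -0.62 and -0.50 (adjusted p = 0.727 and 0.323).

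Over the 11 bulk units, the genes most like each member by Pearson correlation of log2 CPM are named here. They are a description of 11 points that share groups and library preparation. Cd80 was most like Eif3m (r = 0.957) and Dad1 (0.951), Cd86 like Rdh11 (0.968) and Hand1 (0.930), and Cd40 like Psme1 (0.966) and Rogdi (0.951). Cd274 was most like Bid (0.961) and Il4ra (0.954), and Tnfrsf11a like Bhlhe40 (0.912) and Osr1 (0.888). Relb was most like Sgms1 (0.908) and Gm12346 (0.904), Nfkb2 like Lrrc9 (0.961) and Trim2 (0.958), and Traf6 like Specc1l (0.980) and 9430034N14Rik (0.972).

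Single cells placed 7 of the 8 genes higher in the medulla than in the cortex. In mTEChi WT against cTEC WT cells, 6 of the 8 were at least 2-fold higher, as were 32.8% of the 18130 genes at a mean of 1 CPM or more, while 26% were lower by that much. Tnfrsf11a was 17.1-fold higher, at 176.1 CPM of summed counts (95% counting interval 173.4 to 178.9) against 10.3 CPM (9.78 to 10.9). Cd40 was 13.6-fold higher, at 390.8 CPM (386.7 to 394.9) against 28.7 (27.9 to 29.7). Relb stood at 241.2 against 76.4 CPM and Nfkb2 at 234.1 against 92.3 CPM, 3.16-fold and 2.54-fold higher. Traf6 was 1.69-fold higher, at 72.4 against 42.9 CPM. Cd274 was the exception, with 107.2 CPM in mTEChi WT and 172.9 CPM in cTEC WT, 1.61-fold higher in the cortical cells. Each single-cell group counts as 1 sample, because no animals are named, so no test was possible. The intervals cover counting error of reads only, not the spread among cells. The cTEC labels name no plate, so cell type and plate cannot be told apart here. The median share of ERCC spike-in reads was 38.3% in mTEChi WT and 0.108% in cTEC WT cells.

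Cd80 and Cd86 were rare in the cortex and their cortical levels rested on single cells. Cd80 was detected in 7 cTEC WT cells (2.57%) and in 46.2% of mTEChi WT cells, at 2.58 and 38.8 CPM. Cd86 was detected in 14 cTEC WT cells (5.15%) and in 23.4% of mTEChi WT cells, at 15.97 and 47.3 CPM. One cTEC WT cell held 84.3% of the Cd86 reads of its group and 54.2% of Cd80 reads came from 1 cell as well. Without the cell with the most reads the cortical levels were 2.52 CPM for Cd86 and 1.18 CPM for Cd80.

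**Figure D3:**
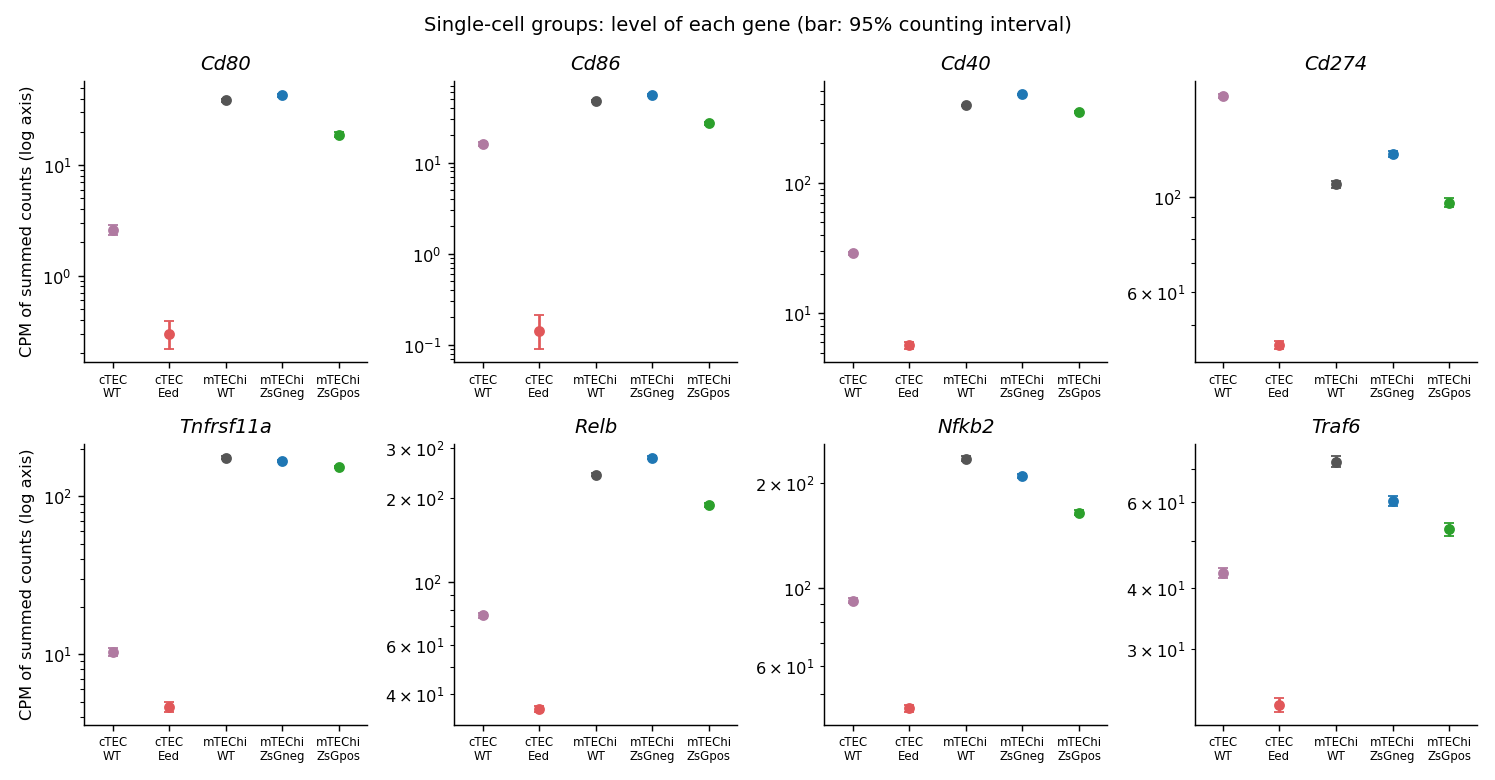
Level of each gene in the 5 single-cell groups, as CPM of the summed counts on a log axis, with 95% counting intervals. Cd40 and Tnfrsf11a lie over 10-fold higher in mTEChi WT than in cTEC WT cells, and all 8 genes are lower in cTEC Eed than in cTEC WT.

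In the cortex, all 8 genes were lower in Eed than in WT cells, 7 of them by 2-fold or more, where 12.4% of 15709 genes were and 16.5% were higher. Cd274 had 45.0 CPM (43.96 to 46.02) in cTEC Eed, 3.84-fold below the 172.9 CPM (170.7 to 175.1) of cTEC WT. Cd40 had 5.69 CPM (5.33 to 6.06), 5.06-fold below WT. Relb, Nfkb2 and Tnfrsf11a stood at 35.5, 45.6 and 4.63 CPM, 2.15-fold, 2.03-fold and 2.23-fold lower, and Traf6 at 23.1 CPM, 1.86-fold lower. Cd80 and Cd86 had 48 and 23 reads in the Eed cells, each in 3 cells. The median log2 ratio over all genes was 0.02. Among the other genes of the pathway, 3 of 13 subunits, inhibitors and feedback targets were 2-fold or more lower (Nfkb1, Nfkbie and Birc3) and 2 higher (Nfkbiz and Tnfaip2), and 2 of 15 kinases and adaptors were lower (Traf2 and Cyld). Of 12 other ligands measured 4 were lower, among them Pdcd1lg2 at 2.6 against 7.5 CPM, and 4 higher. Of 6 TNF family genes measured, 2 were higher (Tnfrsf11b and Tnfrsf12a) and 0 lower. The median log2 ratio was -0.47 for the subunits, inhibitors and feedback targets and -0.35 for the kinases and adaptors. It was 0.15 for the other ligands and 0.12 for the TNF family genes.

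The 2 cortical groups also differed in markers. The 6 cortical markers summed to 1971 CPM in Eed and 14490 CPM in WT cells, and the 4 fibroblast markers to 4993 and 1511 CPM. Cells with 10 or more reads of any of 6 markers of other cell types made up 48.6% of cTEC Eed and 11.03% of cTEC WT cells. With those cells left out Cd274 was at 55.5 CPM in Eed and 181.6 CPM in WT, Cd40 at 5.88 and 27.4 CPM, Relb at 35.2 and 78.3 CPM and Nfkb2 at 50.1 and 95.3 CPM, each lower in Eed. The part of the cortical markers in the difference was not tested. The cTEC labels name no plate, and no plate is known to hold both groups, so strain and plate cannot be told apart. The median share of ERCC spike-in reads was 0.108% in cTEC WT and 0.899% in cTEC Eed cells.

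Within the medulla, single ZsGpos cells had less Cd80, Cd86 and Cd40 than ZsGneg cells, in the same order as in bulk. Cd80 was at 18.8 CPM (17.8 to 19.8) in ZsGpos, 42.96 CPM (41.7 to 44.2) in ZsGneg and 38.8 CPM (37.5 to 40.1) in WT. Cd86 was at 27.1 CPM (25.9 to 28.3), 55.6 CPM (54.2 to 57.1) and 47.3 CPM (45.9 to 48.8). Cd80 and Cd86 were the 2 members that were 2-fold or more lower in ZsGpos than in ZsGneg, by 2.29-fold and 2.05-fold, where 10.9% of 17948 genes were lower and 11.9% higher by that much. Against WT only Cd80 was, by 2.06-fold, where 14.2% of 18223 genes were, and 10.6% were higher. Cd40 was at 346.6 CPM (342.3 to 350.9), 472.7 CPM (468.6 to 476.9) and 390.8 CPM, 1.36-fold lower in ZsGpos than in ZsGneg. Without cells that held markers of other types the levels were 15.1, 43.3 and 40.3 CPM for Cd80 and 372.1, 447.04 and 376.9 CPM for Cd40 in the same order. The dendritic and myeloid markers summed to 2000 CPM in ZsGpos, where Itgax was at 0, 1149 in ZsGneg and 1711 in WT, and their part in these levels was not tested.

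The other 5 members were also lowest in single ZsGpos cells by summed counts. On single plates Cd274, Tnfrsf11a and Traf6 were not always below both other groups. Relb had 188.3 CPM in ZsGpos cells, against 277.1 for ZsGneg and 241.2 for WT. Nfkb2 had 164.1, 208.9 and 234.1 CPM, and Traf6 52.7, 60.2 and 72.4 CPM. Tnfrsf11a had 153.2, 166.7 and 176.1 CPM and Cd274 97.1, 126.3 and 107.2 CPM. The folds between ZsGneg and ZsGpos were 1.47 for Relb, 1.27 for Nfkb2, 1.30 for Cd274, 1.14 for Traf6 and 1.09 for Tnfrsf11a. ZsGneg against WT moved no member by 2-fold, where 12.8% of 18242 genes were lower and 7.86% higher by that much. In bulk, ZsGpos against ZsGneg had the other sign for Traf6 (log2 0.73), Nfkb2 (0.50), Cd274 (0.32) and Tnfrsf11a (0.13). Relb was at -0.05 there, and none of these bulk differences passed.

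The mTEChi cells came from 4 plates, each with cells of all 3 groups, which gave a comparison within plates. Plate SCGC1381 held only 2 ZsGpos cells beside 85 ZsGneg and 77 WT cells, so the summed levels above are not matched by plate. The 3 plates named SCGC1373, SCGC1379 and SCGC1380 were compared. ZsGneg lay above ZsGpos by 3.02, 1.28 and 1.73-fold for Cd80 and by 2.05, 1.14 and 3.91-fold for Cd86 on them. Cd80 had 23.2, 15.1 and 22.6 CPM in ZsGpos against 70.2, 19.3 and 39.1 CPM in ZsGneg on these plates. Cd40 had 226.3, 415.8 and 304.8 CPM against 374.4, 553.8 and 396.6 CPM, and Cd86 23.2, 37.4 and 12.97 CPM against 47.7, 42.5 and 50.7 CPM. Relb had 238.6, 186.6 and 164.2 CPM against 301.5, 241.5 and 257.5 CPM. Cd80, Cd86, Cd40, Relb and Nfkb2 were lower in ZsGpos than in ZsGneg on all 3 plates, as were 14.4% of 17948 genes, and Cd274, Tnfrsf11a and Traf6 on 2, 1 and 1 of them. Against WT, Cd40 was higher in ZsGpos on plate SCGC1373 (226.3 against 182.97 CPM) and lower on the other 2. Cd86 was likewise higher in ZsGpos on plate SCGC1373 (23.2 against 12.9 CPM) and lower on the other 2. Without plate SCGC1380 the Cd40 level of ZsGpos and WT cells differed by a log2 ratio of 0.01.

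**Figure D4:**
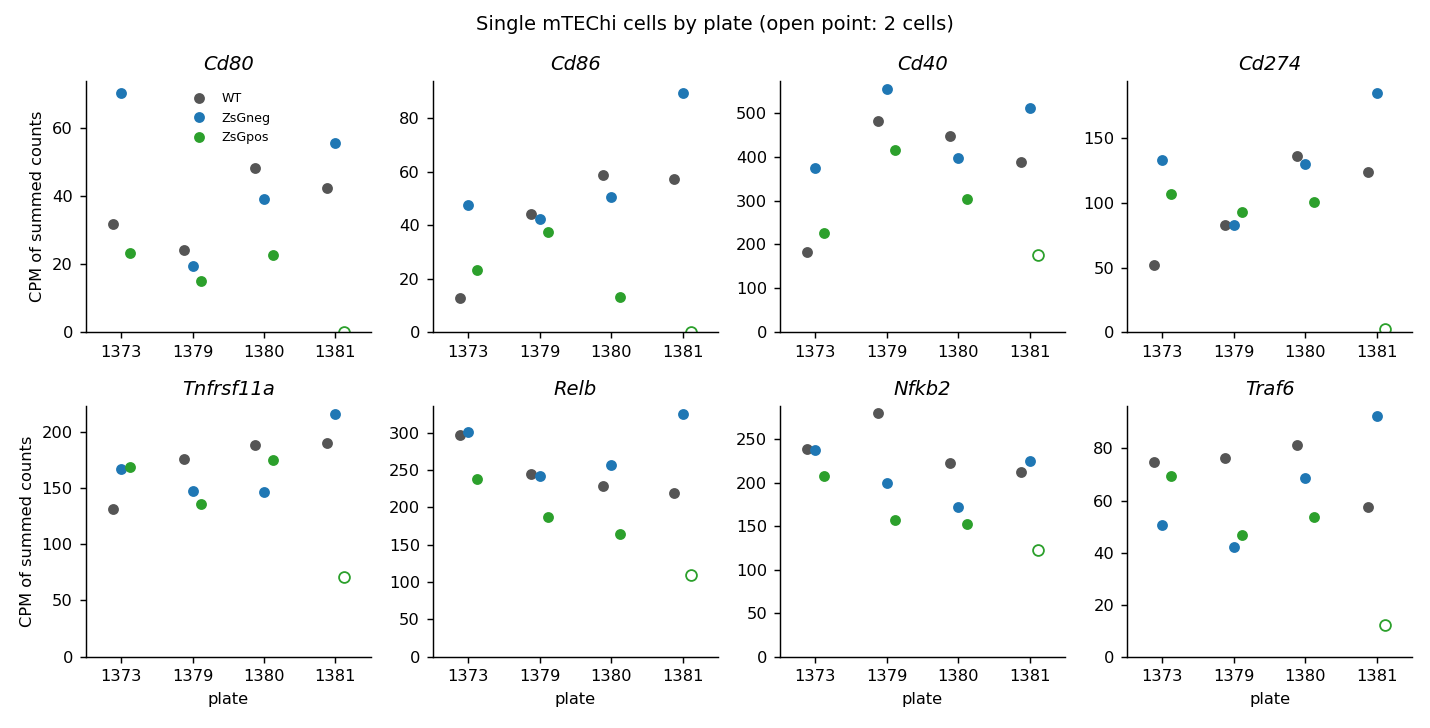
Level of each gene in single mTEChi cells by plate, as CPM of summed counts, with 1 point for each group and an open point for the 2 ZsGpos cells of plate SCGC1381. On plates SCGC1373, SCGC1379 and SCGC1380 the ZsGpos point of Cd80 lies at 15.1 to 23.2 CPM, below both others.

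The share of cells with a gene detected was also compared. After each cell was thinned to 50000 gene counts, Cd80 was detected in 22.6% of ZsGpos cells (exact 95% binomial interval 17.2 to 28.7), 39.7% of ZsGneg cells (34.4 to 45.2) and 35.3% of WT cells (29.8 to 41.2). With all reads the shares were 35.02%, 45.2% and 46.2%. Cd40 was detected in 71.9% of ZsGpos cells (65.4 to 77.8), 84.2% of ZsGneg cells (79.9 to 88.002) and 80.8% of WT cells (75.7 to 85.2) when thinned. Cd86 was detected in 11.98% (7.98 to 17.1), 20.6% (16.4 to 25.4) and 18.9% (14.5 to 23.9). All 3 genes had their lowest share in ZsGpos cells. The intervals cover counting error within 1 sample a group, and they are no test between groups. In cells with any Cd80 read the median level was 25.3 CPM for ZsGpos, 59.1 for ZsGneg and 39.7 for WT. For Cd86 these medians were 61.6, 92.2 and 61.7 CPM. No cell had to be left out for depth in the thinning, since the filter required 50000 gene counts.

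The thinned shares of the other members in mTEChi cells were as follows. Nfkb2 was detected in 79.3%, 82.7% and 84.6% of ZsGpos, ZsGneg and WT cells, Relb in 77.4%, 85.2% and 80.8%, and Tnfrsf11a in 72.8%, 76.7% and 76.6%. Traf6 was detected in 44.2% (37.5 to 51.1), 53.3% (47.8 to 58.8) and 56.3% (50.3 to 62.1). Cd274 was detected in 57.6%, 60.9% and 59.8% of the medullary groups and in 57.4% of cTEC WT cells, against 26.7% (22.05 to 31.8) of cTEC Eed cells. In the cortex Cd40 was detected in 19.9% of WT (15.3 to 25.1) and 4.80% of Eed cells (2.77 to 7.69). Tnfrsf11a was detected in 5.15% and 4.504% of cortical WT and Eed cells.

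**Figure D5:**
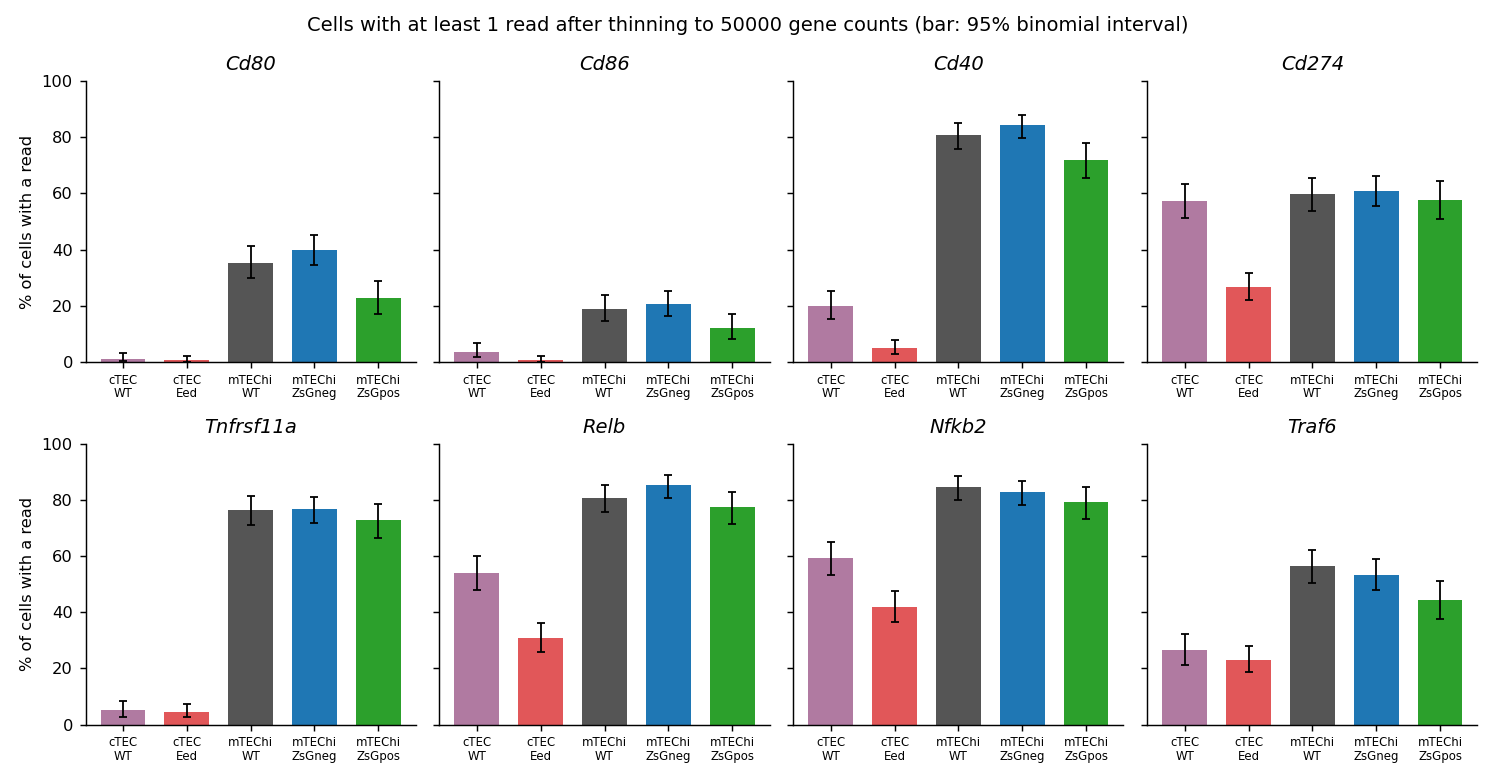
Share of cells with at least 1 read of each gene after thinning every cell to 50000 gene counts, in the 5 single-cell groups, with exact 95% binomial intervals. Cd80 reaches 39.7% in ZsGneg and 22.6% in ZsGpos cells, against 1.10% of cTEC WT and 0.601% of cTEC Eed cells.

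A single mTEChi cell usually showed most of the set. The median number of members detected was 6 in WT and ZsGneg cells, 5 in ZsGpos, 3 in cTEC WT and 2 in cTEC Eed cells. All 8 were detected in 9.44% of WT, 9.70% of ZsGneg and 5.53% of ZsGpos mTEChi cells. In WT mTEChi cells, detection of a member went weakly with that of the others. In thinned WT cells Cd40 was found in 92.1% of Cd80-positive and 74.6% of Cd80-negative cells, and Nfkb2 in 90.04% of Relb-positive and 61.8% of Relb-negative cells. Traf6 was found in 62.3% of Cd40-positive and 30.9% of Cd40-negative cells. Cd80 and Cd86 were found together in 24 WT cells, where the product of their shares gives 19.1 cells. Over the 28 pairs this ratio of observed to product lay between 1.01 and 1.30 in WT, which is a weak relation in cells that share plates. The ratio lay between 1.02 and 1.30 in ZsGneg. In ZsGpos it lay between 0.96 and 1.70, with 27 of 28 pairs over 1. Pairs of other genes were not compared.

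Aire, the regulator of self-antigen expression, was detected in 89.5% of WT, 86.7% of ZsGneg and 78.3% of ZsGpos cells. In WT cells with Aire, Cd40 was at 421.95 CPM and Cd80 at 41.7 CPM, and in the 30 without it at 35.5 and 5.54 CPM, while Cd274 was at 106.1 and 119.6 CPM. The split differed in ZsGneg, where Cd40 was at 499.4 CPM with Aire and 226.5 CPM without it. Cd86 (54.1 and 69.8 CPM) and Cd274 (121.7 and 169.2 CPM) had higher summed levels in ZsGneg cells without Aire. They were detected in a smaller share of those 44 cells, Cd86 in 22.7% against 26.9% with Aire and Cd274 in 40.9% against 72.7%. In ZsGpos cells both had lower summed levels without Aire, Cd86 at 8.11 against 31.2 CPM and Cd274 at 64.1 against 104.4 CPM. WT cells with Aire were deeper, with a median of 298560 against 211160 gene counts in those without. Among cells with Aire the order of the groups was kept: Cd80 had 19.9 CPM for ZsGpos, 46.8 for ZsGneg and 41.7 for WT, and Cd40 409.4, 499.4 and 421.95 CPM.

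Small pools of 100 cells on plate SCGC1373 were too shallow for most of the set. These 9 wells held 10332 to 180374 gene counts, and only Cd40 passed the filter among 731 genes tested. The 3 ZsGpos wells had 34, 4 and 4 Cd40 reads, the ZsGneg wells 3, 5 and 3, and the WT wells 5, 1 and 21. Cd40 did not pass in any of the 3 comparisons, in which 2.74% (ZsGpos against WT), 0.547% (ZsGneg against WT) and 3.69% (ZsGpos against ZsGneg) of genes did. Its log2 fold change between ZsGpos and ZsGneg was 0.69 (adjusted p = 0.657), opposite in sign to bulk. Cd80 had 4 reads over the 3 ZsGneg wells and none in the other 6.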

How the data were processed

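RNA was measured by SMART-seq2 from sorted thymic epithelial cells. The authors deposited 1 table of read counts per gene, and per the submitters' processing notes FastQC, Trimmomatic, HISAT 0.1.6, BWA 0.5.9, HTSeq and MACS2 were used with mm10. The notes give no role or strand setting. Every column was tied to a sample (0 were not). The 92 ERCC and 5 unassigned rows stayed out of library sizes and tests, and unassigned reads made up 29.7% to 43.4% of bulk libraries.

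The members and lists were chosen with earlier results of these data known. Bulk counts were fitted with edgeR 4.0.16 (R 4.3.3) over 11 units, with TMM scaling, a filter on low counts, quasi-likelihood tests and Benjamini-Hochberg adjustment at 0.05 over all 18931 genes. DESeq2 1.42.0 was an alternative. The fits were tested on simulated data. Genes named were the members, 10 pathway genes fixed by name, list genes that passed and the 2 most correlated genes of each member. Repeat runs and the ChIP and input libraries were not analysed here.

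Single cells needed at least 50000 gene counts and 1000 genes, which kept 272 of 384 cTEC WT, 333 of 384 cTEC Eed, 286 of 496 mTEChi WT, 330 of 469 ZsGneg and 217 of 540 ZsGpos wells. No doublet caller was run. There are no molecular identifiers, so intervals of levels cover counting error of reads only. They treat reads as independent, so copies of the same molecule and the spread among cells are not covered. Levels are CPM of summed counts with exact Poisson intervals, and shares have Clopper-Pearson intervals. Tried alternatives were other scalings, filters and models, each unit left out, and stricter cell filters. Leaving out cells over 50% ERCC, plate 1380 or the top cell was chosen after seeing the data. One other marker list is not reported here.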

Additional observations from a re-analysis of the deposited data

Results flagged for a closer look

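Cd80 stood at 157.1 CPM in bulk ZsGneg 04, far above the other 3 ZsGneg units (79.9, 85.4 and 86.3 CPM). The gap was 0.917 of the range of the group. Among 16 groups of 4 units examined this was the only such value. Chance gives such a value in about 1 in 20 groups, so 1 among 16 is not unusual. Without ZsGneg 04 the log2 fold change of Cd80 between ZsGpos and ZsGneg was -1.68 (edgeR adjusted p = 0.156).

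Reads on the 8 genes appeared in 3 wells labelled as holding no template, all on plate SCGC1380. They numbered 11 in well A1, 17 in well A2 and 4 in well A3. The reads in A1 fell on Cd40, Tnfrsf11a, Nfkb2 and Traf6, those in A2 on Tnfrsf11a and Nfkb2, and those in A3 on Relb. Without this plate the Cd80 levels were 17.1 CPM for ZsGpos, 43.9 for ZsGneg and 34.03 for WT single cells.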

How the results depend on the processing

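Members called in bulk ZsGpos against ZsGneg numbered 0 with the 9 WT libraries separate, with WT left out or with the share outside genes as covariate, 2 with DESeq2 or without the filter on low counts, and 0 to 2 with 1 unit left out. Over all genes, DESeq2 called 2305 of 19749 in this comparison, and the fit without the filter 837 of 34551. The covariate did not overlap between ZsGpos and ZsGneg units, so the fit with it cannot decide whether these differences hold. No member was called against WT in any of the 18 alternatives. Replicate numbers were not shown to pair the units (correlations of -0.021 to 0.018 for the same number). In the fit with the number as a block Cd80 passed (log2 -2.21, adjusted p = 0.0359) and Cd40 did not (log2 -0.90, adjusted p = 0.0620).

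Some signs turned, none of them of a difference that had passed. With the block these were Traf6 in ZsGpos against WT (-0.089), and Cd86 (-0.18) and Relb (0.10) in ZsGneg against WT. With the covariate, where the turns were largest, they were Relb (0.021) and Traf6 (-0.69) in ZsGpos against WT, Traf6 (0.69) in ZsGneg against WT, and Relb (0.20), Nfkb2 (-0.64) and Traf6 (-1.38) in ZsGpos against ZsGneg. With DESeq2 and with RLE factors, Tnfrsf11a (0.013 and 0.013) and Relb (0.033 and 0.034) turned in ZsGneg against WT. With 1 unit left out, ZsGpos against WT ran from -0.035 to 0.21 for Tnfrsf11a and -0.31 to 0.14 for Relb. ZsGneg against WT ran from -0.47 to 0.45 for Cd86, -0.15 to 0.051 for Tnfrsf11a and -0.19 to 0.10 for Relb, and ZsGpos against ZsGneg from -0.29 to 0.16 for Relb. Without plate SCGC1380, chosen after seeing the data, the single-cell log2 ratio was 0.015 for Cd40 and 0.050 for Cd274 in ZsGpos over WT and 0.013 for Tnfrsf11a in ZsGneg over WT. Under the alternative settings, 140 single-cell levels of members lay outside the counting interval of the main level and 84 within it. The causes of the turns and of these shifts were not tested.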
